A study of Mus musculus with 5 samples.

Results

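The collagen chain genes of cultured mouse nephron progenitor cells were compared between cells with and without Dis3l2, a 3′-to-5′ exoribonuclease. Members were all genes whose symbol is Col, a number, the letter a and a second number, with nothing before or after, which gave 44 of the 53927 genes in the deposited table. Split by type, 9 were fibrillar (types 1, 2, 3, 5 and 11), 8 belonged to basement membranes (types 4, 15 and 18) and 27 fell in neither class. Total RNA was sequenced from primary nephron progenitor cells, isolated from C57BL/6J mouse embryos with a synthetic niche protocol. All 5 cultures had been passaged once (1 passage). The WT group was Dis3l2+/+ (2 libraries) and the KO group Dis3l2-/- (3 libraries), and no other allele or agent is named for either. The labels do not give the embryos' age, the deleted exons, or whether each library came from its own embryo, so p-values measure only the spread between these libraries, which may be technical.

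A collagen molecule is 3 chains wound into a triple helix, and the genes code for single chains that must meet the right partners in the endoplasmic reticulum. Fibrillar collagens are cleaved outside the cell and packed into the cross-linked fibrils of connective tissue, whereas type IV collagen forms the sheet-like network of basement membranes together with laminins, nidogens and perlecan. In the embryonic kidney, nephron progenitors lie against the basement membrane of the ureteric bud. The interstitial stroma around them is known as the main source of fibrillar collagen, and the type IV chains of the mature glomerular filter (alpha 3, 4 and 5) take over from the alpha 1 and alpha 2 chains as glomeruli form.

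The 6 type IV genes lie in head-to-head pairs, so that each pair shares the DNA between its starts. In the GENCODE models on GRCm38, Col4a1 and Col4a2 on chromosome 8 overlap by 22 bases at their 5′ ends, Col4a3 and Col4a4 on chromosome 1 are 71 bases apart, and Col4a5 and Col4a6 on chromosome X are 1308 bases apart. Promoter sequence from RefSeq (GRCm38.p6) was matched for 35 of the 44 genes. The stretches below are printed for the pair with the closest separate starts, for Col4a6, which with its neighbour Col4a5 ordered the libraries differently from the other 4 type IV chains, and for the 2 collagens at lower levels in every KO library. All are written 5′ to 3′ on the strand of the named gene. The first spans the gap between the GENCODE starts of Col4a3 and Col4a4, and the others end at the RefSeq start of the gene. For Col15a1 that start lies upstream of the GENCODE start given below. None overlaps an annotated exon, and capitals mark a GC box (CCGCCC, the reverse complement of GGGCGG).
Between Col4a3 and Col4a4, chr1:82586850-82586920, minus strand, towards Col4a4: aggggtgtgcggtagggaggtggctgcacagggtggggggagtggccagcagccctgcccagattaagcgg
Upstream of Col4a6, chrX:141474077-141474326, minus strand: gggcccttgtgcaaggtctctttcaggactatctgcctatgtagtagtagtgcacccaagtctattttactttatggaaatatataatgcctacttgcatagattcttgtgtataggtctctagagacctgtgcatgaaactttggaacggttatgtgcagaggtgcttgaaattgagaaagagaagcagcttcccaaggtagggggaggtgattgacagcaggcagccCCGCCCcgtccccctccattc
Upstream of Col6a3, chr1:90843972-90844221, minus strand: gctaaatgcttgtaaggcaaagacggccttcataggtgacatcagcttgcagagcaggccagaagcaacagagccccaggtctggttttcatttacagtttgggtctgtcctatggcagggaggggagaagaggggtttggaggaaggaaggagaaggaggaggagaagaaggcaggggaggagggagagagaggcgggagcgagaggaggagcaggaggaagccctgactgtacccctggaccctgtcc
Upstream of Col15a1, chr4:47207762-47208011, plus strand: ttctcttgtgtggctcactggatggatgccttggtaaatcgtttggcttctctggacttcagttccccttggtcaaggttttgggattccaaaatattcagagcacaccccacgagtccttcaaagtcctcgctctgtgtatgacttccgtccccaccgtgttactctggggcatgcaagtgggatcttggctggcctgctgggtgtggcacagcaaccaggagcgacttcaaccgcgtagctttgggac
The 71 bases between Col4a3 and Col4a4 had a GC content of 69.0%, against a median of 52.4% over the 250 bases upstream of all 32851 RefSeq promoters. The Col6a3, Col15a1 and Col4a6 stretches had 57.2%, 53.6% and 47.6%. A CCAAT box (CCAAT or ATTGG) and a TATA box (TATAAA or TTTATA) were searched for in the same way on both strands, and neither was present in any of the 4 stretches. A GC box was in the 250 upstream bases of 60.0% of the matched collagen genes (21 of 35) and 32.7% of all promoters. A CCAAT box was in 37.1% (13 of 35) against 33.8%, and a TATA box in 14.3% (5 of 35) against 12.4%. By class, a GC box was found in 5 of 6 fibrillar, 4 of 7 basement membrane and 12 of 22 other genes. A collagen gene counted if any of its promoters matched (38 promoters for the 35 genes), while the other share counts each promoter once. This can only raise the collagen shares. These are matches of letters in a fixed window, given as a description.

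Reads assigned to genes numbered 19.6 M to 49.25 M per library (M, mega). Dis3l2 itself measured 16.04 and 12.2 CPM (reads scaled to an effective library size) among WT and 6.50, 4.93 and 4.70 among KO cultures, with a log2 difference of -1.24 (SE 0.21, adjusted p = 0.9545, limma). Mitochondrial mt-Rnr2 took 25.6 to 33.4% of each library's summed CPM. The Pol III transcript Rn7sk took 11.9% in KO replicate 1 and 2.27 to 6.48% in the others. Xist, transcribed from the inactive X chromosome, had 0.93 CPM for WT replicate 1 and 0.52 for KO replicate 3, but 765 to 951 elsewhere. Ddx3y, a gene of the Y chromosome, had 104 CPM for WT replicate 1 and 128 for KO replicate 3, but 0.07 to 0.19 elsewhere. WT replicates 1 and 2 therefore did not come from the same embryo, and KO replicate 3 did not share one with KO replicates 1 and 2. Whether KO replicates 1 and 2 shared an embryo is not given. Among markers of the labelled cell type, Six2 was present at 18.6 to 31.9 CPM in all libraries, whereas Cited1 ranged from 1.40 in WT replicate 2 to 17.05 in KO replicate 1, and Pax2 did not exceed 0.66. Smooth muscle markers were present in every library and cartilage and bone markers nearly absent, with 6 of 7 under 0.5 CPM everywhere and Chad, Ibsp and Bglap under the limit of 3 reads. That limit was 0.0639 to 0.141 CPM and, like the read intervals, covers counting error only.

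Collagen messages made up 0.313 to 0.608% of each library's summed CPM. Per kilobase of annotated exon, the scale used here to compare genes, Col4a1 was the most abundant collagen at a mean of 109 CPM per kilobase over the 5 libraries (77.4 to 154). Col4a1 codes for the chain present in every alpha 1-alpha 1-alpha 2 type IV trimer. It was followed by the type I chains Col1a1 (67.6) and Col1a2 (62.9), by Col4a2 (58.8), by Col12a1 (58.4), a fibril-associated chain, and by Col3a1 (45.3). The libraries' ranges overlapped between all neighbours among these 6 genes. Col5a1, a chain of the minor fibrillar collagen that starts fibrils, was next at 19.0, and its highest library (27.0) was just below the lowest of Col3a1 (28.8). Of the 44 members, 36 reached the filter of 0.5 CPM in at least 2 libraries, among them all 9 fibrillar and all 8 basement membrane genes, and 22 had a mean of at least 5 CPM.

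**Figure D1:**
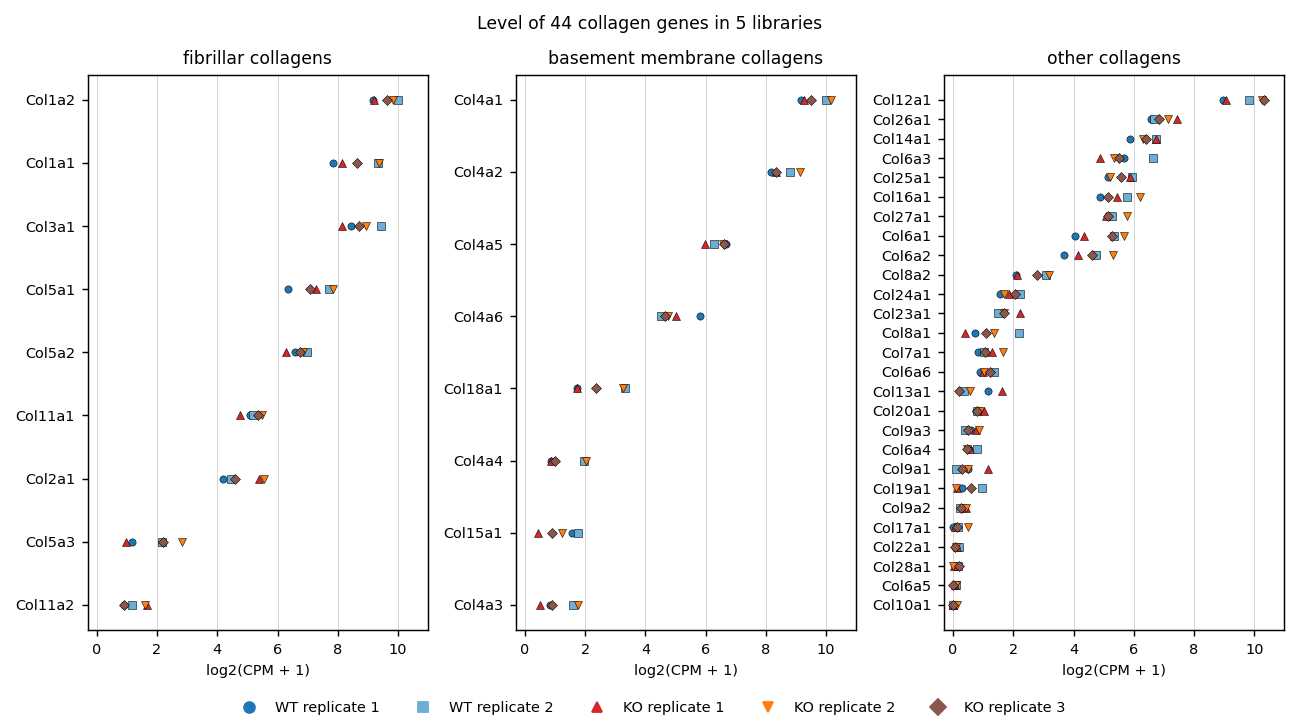
Level of the 44 collagen genes as log2(CPM + 1) in each of 5 libraries, by class and ordered by mean level, with 1 marker shape per library. Markers of WT (blue) and KO (red to brown) interleave for most genes, and WT replicate 1 or KO replicate 1 is often the leftmost.

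The libraries differed from each other in collagen more than the genotypes did. The 44 genes summed to 3246 and 5782 CPM for WT against 3522, 6111 and 4805 CPM for KO (mean 4514 ± 1790, SD, n = 2, and 4813 ± 1290, SD, n = 3). WT replicate 1 and KO replicate 1 were low, WT replicate 2 and KO replicate 2 high, and the genotypes overlapped. WT replicate 2 lay above WT replicate 1 in 31 of 36 collagen genes with a median log2 gap of 0.71, while over all 14884 genes tested it lay above in 44.7% with a median of -0.03. Within KO, replicate 2 lay above replicate 1 in 26 of 36 collagens (median 0.61, against 47.9% and -0.02 over all genes). All 9 fibrillar genes were higher in WT replicate 2 than in WT replicate 1. WT replicate 1 was the lowest library for 19 of 36 collagens (52.8%, against 17.0% of all genes) and KO replicate 2 the highest for 16 (44.4%, against 17.0%). The gap between the 2 WT libraries exceeded the difference between genotype means in 27 of the 36 genes (75.0%, against 62.6% of all genes tested).

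Marker levels of other cell types moved with some of these libraries. The 5 smooth muscle markers summed to 424 and 919 CPM in WT against 482, 1810 and 1720 in KO, again lowest in both replicates 1. Acta2, smooth muscle actin, was at 109 and 404 CPM in WT against 167, 853 and 903 in KO. Acta2 and Tagln made up most of the sum, and Tagln, Myh11 and Cnn1 were also lowest in both replicates 1. Myh11 and Cnn1 were low, at 0.70 to 10.3 CPM. Des did not follow this order, at 118 and 95.5 in WT against 123, 134 and 108 in KO. The 10 nephron progenitor markers summed to 600 and 385 in WT against 617, 490 and 483 in KO, so the sum was highest in the 2 libraries lowest in collagen. Eya1, at 168 to 274 CPM, was its largest part. Osr1 was instead highest in KO replicate 2, at 22.3 and 19.5 in WT against 41.5, 64.6 and 27.3 in KO. It lay above in every KO library (log2 difference 0.97, SE 0.33). Six2 was nearly equal in the WT libraries (18.97 and 18.82). The 10 markers of renal stroma and fibroblasts summed to 683 and 415 in WT against 483, 300 and 349 in KO. Postn was the largest part of that sum in every library, at 482 and 181 CPM in WT against 272, 112 and 157 in KO. Pdgfrb, another of the 10, was instead lowest in both replicates 1, at 68.4 and 141 in WT against 46.0, 90.3 and 90.7 in KO. Endothelial markers ran from 40.2 to 73.2 CPM, podocyte markers from 4.55 to 10.9 and ureteric markers from 5.23 to 13.5, all with genotypes that overlapped. Of the endothelial markers, Pecam1, Cdh5 and Flt1 did not exceed 0.78 CPM. Leukocyte markers (7.84 and 8.12 in WT, 5.29 to 5.71 in KO) were lower in every KO library as a sum, to which Cd68 (1.79 to 3.15 CPM) and Mrc1 (1.37 to 3.85) gave most and in which both were lower in every KO library. Csf1r differed by 0.23, and Ptprc, the general leukocyte marker, did not exceed 0.11 CPM. The part of these cell types in the collagen levels was not tested. In RNA from whole cultures, fewer cells of a type and less RNA per cell cannot be told apart.

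**Figure D2:**
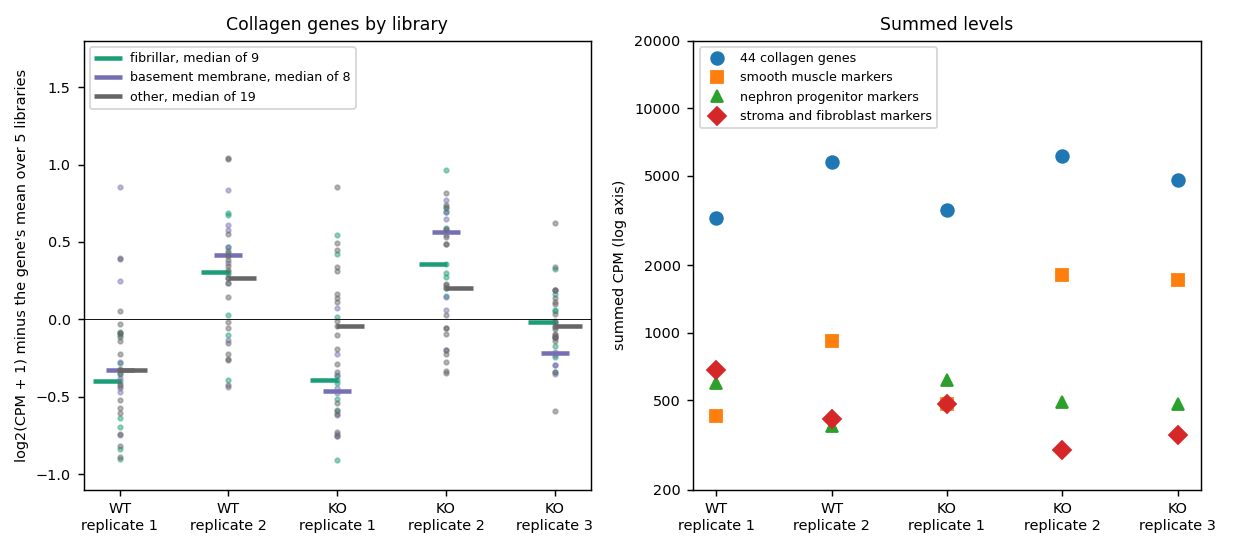
Left, log2(CPM + 1) of each of 36 collagen genes minus its own mean over the 5 libraries, with the median of each class as a bar. Right, summed CPM (log axis) of the 44 collagen genes and of 3 marker lists in the same libraries. Most fibrillar and basement membrane genes sit lower in replicate 1 than in replicate 2 of each genotype. Of the other collagens, 16 of 19 do so in WT and 11 of 19 in KO.

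No collagen gene differed between genotypes by the test across all genes (limma on log2(CPM + 1), threshold adjusted p of 0.05). This was 0 of 36, where 1 of 14884 genes passed (0.00672%). At an unadjusted p under 0.05 there were 4 of 36, with 2.77% of all genes tested below that value. The collagens were Col15a1, Col2a1, Col6a3 and Col26a1. The mean was higher in KO for 22 of 36 (52.9% of all genes tested) and the median log2 difference was 0.09, beside 0.01 over all genes. All 3 KO libraries exceeded both WT libraries for 5 genes (7.85% of all genes tested) and fell short of both for 2 (6.98%). The standard errors ran from 0.15 to 0.57, and the median 95% interval, for 1 gene without adjustment, reached 0.71 log2 units to either side. Differences smaller than that were generally not detectable here. After adjustment over all genes, larger differences could also fail, as for Dis3l2 (-1.24, adjusted p = 0.9545, limma). In the authors' deposited table no collagen had an FDR under 0.05 (0.0315% of 53927 rows did). It listed the same 4 genes at an unadjusted p under 0.05 (2.22% of rows), with log2 fold changes of -0.99 for Col6a3, 0.94 for Col2a1, -1.36 for Col15a1 and 0.54 for Col26a1.

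**Figure D3:**
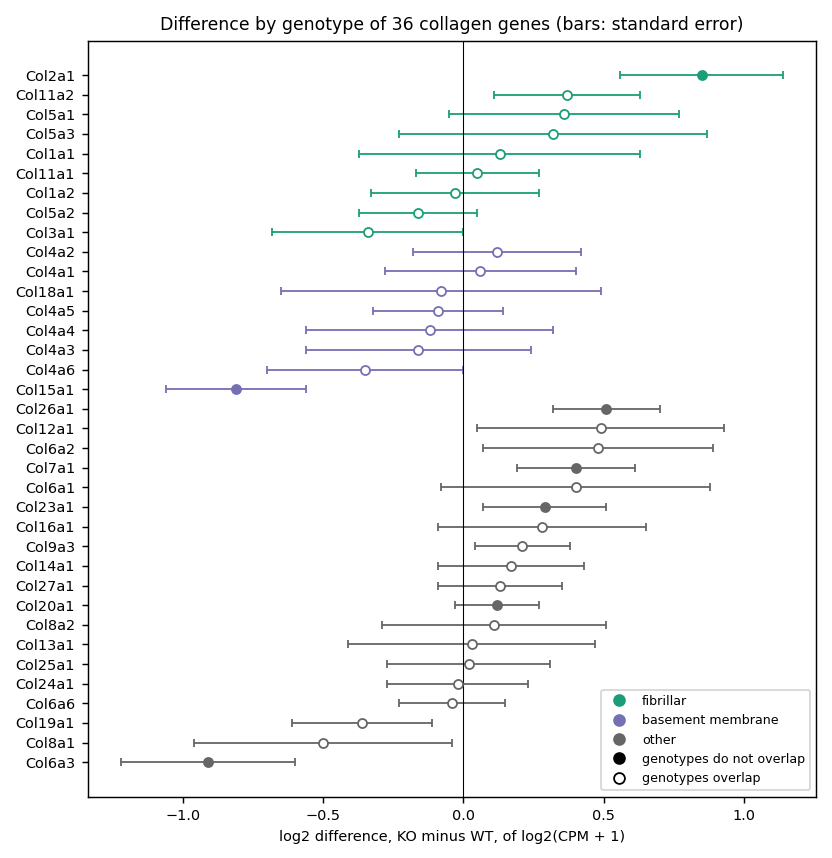
Log2 difference (KO minus WT) of each tested collagen gene from limma on log2(CPM + 1), with bars of 1 standard error on each side, coloured by class. Filled points mark the 7 genes whose genotypes do not overlap, and none of the 36 passed the threshold after adjustment over all genes.

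The fibrillar genes showed no shared direction. Their sum was 1383 and 2755 CPM in WT against 1459, 2504 and 1922 CPM in KO. Means were higher in KO for 6 of 9 and lower for 3, with a median log2 difference of 0.13. Col1a1 and Col1a2, the 2 chains of type I collagen, gave 227 and 649.6 CPM in WT against 284, 656 and 402 in KO for Col1a1 (log2 difference 0.13, SE 0.50), and 579 and 1025 against 591, 919 and 795 for Col1a2 (-0.03, SE 0.30). Both spanned nearly the same range in each genotype. Col3a1, whose homotrimer mixes into type I fibrils, was at 349 and 684 CPM in WT against 283, 488 and 418 in KO (-0.34, SE 0.34), with KO replicate 1 the only library below both WT libraries.

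Col2a1, the main chain of cartilage collagen (chr15:97975602-98004695, minus strand), was the fibrillar gene with the widest difference. It was at 17.4 and 20.8 CPM in WT against 40.6, 46.2 and 23.1 CPM in KO. All 3 KO libraries were above both WT libraries, although KO replicate 3 was only slightly so. The means were 19.1 ± 2.40 (SD, n = 2) and 36.6 ± 12.1 CPM (SD, n = 3), and the log2 difference was 0.85 (SE 0.29, unadjusted p = 0.0224, adjusted p = 1, limma). Markers of cartilage and bone summed to 1.12 and 1.06 CPM in WT against 0.78, 0.47 and 0.51 in KO. With 6 of 7 under 0.5 CPM in every library, they were too low to compare with it. Col11a1, which joins Col2a1 in cartilage fibrils, was at 33.2 and 35.8 CPM in WT against 26.2, 43.6 and 39.4 in KO (0.05), and the genotypes overlapped. Col11a2 was at 0.88 and 1.23 CPM in WT against 2.20, 2.06 and 0.89 in KO, resting on 19 to 103 reads per library. The ratio of Col2a1 to Col11a2 overlapped between genotypes, at 19.8 and 16.9 in WT against 18.5, 22.4 and 25.9 in KO.

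The type V chains regulate fibril diameter. Col5a1 was at 80.8 and 210.1 CPM in WT against 154, 229 and 135 in KO (0.36, SE 0.41). Col5a2 was at 94.8 and 125 in WT against 77.5, 113 and 106 in KO (-0.16). Col5a3 was low throughout, from 0.94 CPM in KO replicate 1 to 6.11 in KO replicate 2. For all 3 the KO range enclosed or overlapped the WT range. Col3a1 and Col5a2 lie tail to tail on chromosome 1, 24614 bases apart, and the ratio of their CPM stayed between 3.65 and 5.47.

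The basement membrane genes, led by type IV, had higher means in KO for 2 of 8 and lower for 6 (52.9% of all genes tested were higher), with a median log2 difference of -0.10. Without WT replicate 1 that median was -0.44 and without WT replicate 2 it was 0.32. They summed to 1029 and 1570 CPM in WT against 1032, 1844 and 1180 CPM in KO. Col4a1 was at 578 and 1012 CPM in WT against 612, 1146 and 726 in KO (0.06, SE 0.34), and Col4a2 at 289.96 and 443 in WT against 323, 563 and 326 in KO (0.12, SE 0.30). These chains, which pair in the widespread type IV trimer, followed the library order of the whole family. The chains of the mature glomerular network were scarce: Col4a3 was at 0.79 and 2.00 CPM in WT against 0.41, 2.40 and 0.85 in KO, and Col4a4 at 0.84 and 2.88 in WT against 0.83, 3.12 and 0.99 in KO. Both were high in the same 2 libraries, replicates 2 of each genotype, and rested on 17 to 100 reads.

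The X-linked type IV chains ordered the libraries differently. Col4a5, mutated in X-linked Alport syndrome, was at 101 and 77.2 CPM in WT against 62.2, 93.8 and 96.8 in KO (-0.09). Col4a6, its neighbour and partner in some basement membranes, was at 54.6 and 21.8 CPM in WT against 31.4, 25.8 and 24.1 in KO (-0.35, SE 0.35). WT replicate 1 had the highest level of both, whereas it had the lowest or next to lowest level of the other 4 type IV chains. WT replicate 1 and KO replicate 3 were the libraries with little Xist and with the Y-linked Ddx3y. KO replicate 3 had the next to highest Col4a5 but not Col4a6. The part of X dosage in these levels was not tested.

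Types XV and XVIII carry glycosaminoglycan side chains and release anti-angiogenic fragments, endostatin in the case of type XVIII. Col15a1 (chr4:47208161-47313167, plus strand) measured 1.99 and 2.39 CPM in WT against 0.36, 1.37 and 0.85 in KO, from 43 and 68 reads against 17, 44 and 18. Every KO library was below both WT libraries. The log2 difference was -0.81 (SE 0.25, unadjusted p = 0.0144, adjusted p = 1, limma), the lowest unadjusted p of any collagen, at a level where the value depends on the pseudocount (-1.24 with 0.25 and -0.30 with 5). Markers of endothelium, a cell type known to make type XV, summed to 48.8 and 73.2 CPM in WT against 60.4, 40.2 and 46.4 in KO, overlapping between genotypes. That sum was mostly Emcn (28.8 and 64.6 in WT) and Kdr (18.6 and 5.27 in WT), which ordered the WT libraries in opposite ways. Pecam1, Cdh5 and Flt1, of the same list, did not exceed 0.78 CPM. The part of endothelium in the Col15a1 level was not tested. Col18a1 was at 2.32 and 8.92 CPM in WT against 2.30, 8.51 and 4.14 in KO (-0.08, SE 0.57), the widest gap between the WT libraries of any tested collagen on the log2(CPM + 1) scale, 1.58.

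Of the remaining 27 genes 19 were tested, of which 14 had higher means in KO and 5 lower, with a median log2 difference of 0.13. Their sum was 833.7 and 1457 CPM in WT against 1032, 1764 and 1703 in KO. As a share of all collagen CPM, these genes made up 25.7 and 25.2% in WT against 29.3, 28.9 and 35.4% in KO, while fibrillar genes made up 42.6 and 47.6% in WT against 41.4, 41.0 and 40% in KO. Every KO library was thus above both WT libraries in the first share and below both in the second. The basement membrane share, 31.7 and 27.2% in WT against 29.3, 30.2 and 24.6% in KO, overlapped, and so did the sums of all 3 classes. Most of the first sum was Col12a1, which links type I fibrils to their surroundings, at 494 and 913 CPM in WT against 539, 1233 and 1268 in KO. Its log2 difference of 0.49 (SE 0.44) fell to 0.05 without WT replicate 1, and the genotypes overlapped.

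Type VI collagen forms beaded microfilaments around cells from 1 chain each of alpha 1, alpha 2 and a longer partner, most often alpha 3. Col6a3 (chr1:90765923-90843971, minus strand) was at 49.9 and 99.7 CPM in WT against 28.7, 39.5 and 44.9 in KO. Every KO library was below both WT libraries, with means of 74.8 ± 35.2 (SD, n = 2) and 37.7 ± 8.26 CPM (SD, n = 3). This separation depended on the scaling. With plain scaling to equal column sums the genotypes overlapped, at a log2 difference of -0.88. The log2 difference was -0.91 (SE 0.31, unadjusted p = 0.0236, adjusted p = 1, limma) and ranged from -0.42 without WT replicate 2 to -1.40 without WT replicate 1. The other chains did not share it: Col6a1 was at 15.4 and 39.4 CPM in WT against 19.2, 49.6 and 37.3 in KO (0.40, SE 0.48), and Col6a2 at 11.9 and 25.7 in WT against 16.9, 38.95 and 23.3 in KO (0.48, SE 0.41). Both overlapped between genotypes and were lowest in WT replicate 1. Of the alternative longer partners, Col6a6 ran from 0.84 to 1.58 CPM, Col6a4 from 0.37 to 0.74, and Col6a5 did not exceed 0.07.

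Col26a1 (chr5:136741759-136883209, minus strand), a secreted chain with short collagen domains, was the most abundant collagen with genotypes that did not overlap. It was at 94.3 and 100.4 CPM in WT against 171, 141 and 112 in KO, so no KO library was as low as either WT library. The means were 97.4 ± 4.30 (SD, n = 2) and 141 ± 29.2 CPM (SD, n = 3), and the log2 difference was 0.51 (SE 0.19, unadjusted p = 0.0302, adjusted p = 1, limma). Unlike most collagens, it was nearly equal in the 2 WT libraries. The other 3 genes above both WT libraries in all KO libraries were low. Col7a1, the anchoring fibril chain of skin, was at 0.79 and 1.02 CPM in WT against 1.43, 2.15 and 1.08 in KO (0.40, SE 0.21), from 17 to 69 reads. Col20a1 was at 0.70 and 0.74 in WT against 1.02, 0.84 and 0.75 in KO (0.12, SE 0.15), and the membrane-spanning Col23a1 at 2.18 and 1.83 in WT against 3.62, 2.25 and 2.26 in KO (0.29, SE 0.22). In each of these 3 genes the lowest KO library lay within the 95% counting interval (exact Poisson) of the highest WT library.

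Other fibril-associated and membrane chains overlapped between genotypes. Col14a1, a fibril-associated chain like Col12a1, was at 58.3 and 105 CPM in WT against 105, 78.7 and 83.5 in KO (0.17). Col16a1, of the same group, was at 28.6 and 53.3 in WT against 42.6, 73.1 and 34.6 in KO (0.28). Col25a1, a membrane-spanning collagen, was at 34.0 and 59.96 in WT against 58.1, 35.7 and 46.8 in KO (0.02), and Col27a1, fibril-forming by its domains but outside the fibrillar class used here, at 34.2 and 37.4 in WT against 33.0, 53.4 and 34.1 in KO (0.13). The chains of the network-forming type VIII, Col8a1 and Col8a2, were at 0.65 and 3.55 CPM in WT against 0.32, 1.56 and 1.13 in KO, and at 3.25 and 7.58 in WT against 3.35, 8.14 and 5.97 in KO. Both were lowest in the 2 replicates 1 and highest in the 2 replicates 2. Col13a1 went the other way, at 1.25 and 0.28 CPM in WT against 2.11, 0.47 and 0.14 in KO, highest in both replicates 1. Col24a1 lay between 1.95 and 3.69 CPM, Col9a3 between 0.32 and 0.81, and Col19a1 between 0.06 and 0.95.

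The 8 genes below the filter all belonged to the class of other collagens: Col6a4, Col6a5, Col9a1, Col9a2, Col10a1, Col17a1, Col22a1 and Col28a1. Col9a1 reached 1.24 CPM in KO replicate 1 (58 reads) and 0.07 to 0.42 elsewhere, and Col17a1 reached 0.41 in KO replicate 2. Col10a1, the collagen of hypertrophic cartilage, had 3 reads in KO replicate 2 and 0 in the other libraries. By the 95% counting interval (exact Poisson), 0 reads allows up to 0.173 CPM, in KO replicate 3. The remaining members of this set stayed between 0 and 0.74 CPM.

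Ratios between chains of 1 trimer remove what moves both chains together, so they were compared library by library for 16 pairs known to assemble. In 4 of the 16 the genotypes did not overlap, where 16.2% of the ratios of any 2 tested genes did not. With 2 against 3 libraries the exact two-sided permutation test cannot give a p below 0.1. The most even ratio was Col4a2 to Col4a1, per kilobase 0.566 and 0.494 in WT against 0.595, 0.554 and 0.506 in KO, with the highest 1.20 times the lowest. The sources used here do not say whether reads in this pair's 22-base overlap were counted by strand. Col4a4 to Col4a3 ran from 0.999 to 1.90 per kilobase and Col1a2 to Col1a1 from 0.74 to 1.35, neither separating the genotypes.

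Col6a3 to Col6a1, in CPM, was 3.24 and 2.53 in WT against 1.5, 0.797 and 1.20 in KO, a log2 difference of -1.35 (exact permutation p = 0.1, 0.5333 adjusted over the 16 pairs). Col6a3 to Col6a2 was 4.2 and 3.88 in WT against 1.69, 1.01 and 1.92 in KO (-1.44, the same exact p values). Every KO library was below both WT libraries in both ratios, and the 2 WT libraries, which differed in Col6a3 itself, gave ratios close to each other. Col6a2 to Col6a1 stayed between 0.625 and 0.883. Per kilobase, Col6a3 to Col6a1 was 1.19 and 0.928 in WT against 0.548, 0.292 and 0.44 in KO, and Col6a3 to Col6a2 2.93 and 2.7 against 1.18, 0.706 and 1.34. These ratios share Col6a3 and are not independent of its own difference.

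Col8a2 to Col8a1 was 5.00 and 2.14 in WT against 10.5, 5.22 and 5.28 in KO (log2 difference 1.02, exact permutation p = 0.1, 0.5333 adjusted), with KO replicates 2 and 3 scarcely above WT replicate 1. Col8a1 rested on 14 reads in WT replicate 1 and 15 in KO replicate 1. Col2a1 to Col11a1 was 0.524 and 0.581 in WT against 1.55, 1.06 and 0.586 in KO (0.84, exact permutation p = 0.2, 0.80 adjusted). The other 12 ratios overlapped between genotypes, among them Col4a6 to Col4a5 at 0.541 and 0.282 in WT against 0.505, 0.275 and 0.249 in KO, which separated both replicates 1 from the other libraries.

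**Figure D4:**
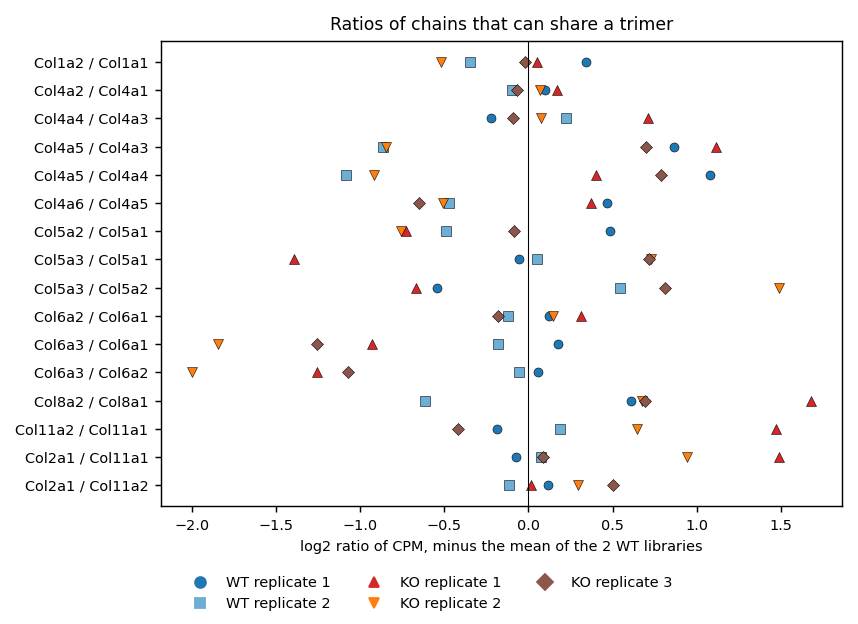
Log2 ratio of CPM between 16 pairs of chains that can share a trimer, each library minus the mean of the 2 WT libraries for that pair. The 3 KO markers of Col6a3 to Col6a1 and of Col6a3 to Col6a2 lie left of both WT markers, while the 5 markers of Col4a2 to Col4a1 lie close together near 0.

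Genes that fold and modify procollagen in the endoplasmic reticulum had higher means in KO for 20 of 22, with a median log2 difference of 0.22 beside 0.01 over all genes, though 0 of 22 passed the threshold (limma) and 2 had an unadjusted p under 0.05. Over all genes tested, 52.9% had higher means and 2.77% an unadjusted p under 0.05. They summed to 2680 and 3310 CPM in WT against 3770, 4550 and 3370 in KO, so every KO library was above both WT libraries. P4hb, the protein disulfide isomerase subunit of prolyl 4-hydroxylase, was at 428 and 499 CPM in WT against 577, 665 and 599 in KO (0.40, unadjusted p = 0.0370). P3h4, a partner of lysyl hydroxylase in modifying collagen lysines, was at 39.6 and 43.99 in WT against 57.0, 61.9 and 51.5 in KO (0.43, unadjusted p = 0.0170). Serpinh1, the collagen chaperone HSP47, overlapped, at 1061 and 1451 in WT against 1721, 2258 and 1370 in KO (0.49). In all, 6 of the 22 lay above in every KO library, among them P4ha1 (0.33), a catalytic prolyl 4-hydroxylase subunit, and Colgalt2 (0.45), a collagen galactosyltransferase under 2 CPM, and 1, P3h2, lay below. Over all genes tested 7.85% lay above and 6.98% below.

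Procollagen processing and cross-linking genes split 7 higher and 4 lower of 11 tested, none with genotypes that did not overlap. Lox, which starts collagen cross-links, was at 786 and 1860 CPM in WT against 782, 2395 and 2700 in KO (0.50). It was low in both replicates 1 like the summed collagens and the summed smooth muscle markers. Loxl1 was at 3.34 and 8.43 in WT against 7.01, 21.1 and 8.51 in KO (0.89), Loxl3 differed by 0.17, and Adamts2, which removes the amino-terminal propeptide of procollagen, by -0.26. Pxdn, which makes the sulfilimine bonds of type IV collagen, was nearly level at 247 to 270.4 CPM.

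Collagen receptors split 6 higher and 4 lower of 10 tested, with a median of 0.11. Ddr1, a receptor tyrosine kinase activated by collagen, was at 14.0 and 14.7 CPM in WT against 18.01, 26.0 and 14.3 in KO (0.37), overlapping. Itga10, a collagen-binding integrin chain, was at 2.27 and 2.07 in WT against 1.83, 1.56 and 1.83 in KO, and was the only receptor with genotypes apart. Itga11, the integrin chain that binds type I collagen on fibroblasts, differed by 0.41 at 0.60 to 2.02 CPM, and Adgrg1, which binds type III collagen, by -0.73 with 3.51 CPM for WT replicate 2 and 1.31 for KO replicate 2 but 0.05 to 0.14 elsewhere.

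Breakdown genes had higher means in KO for 5 and lower for 7 of 12 tested. Mmp9, a gelatinase that cuts denatured collagen and type IV collagen, was at 14.05 and 18.01 CPM in WT against 10.06, 5.12 and 4.51 in KO, with every KO library below both WT libraries. Its log2 difference was -1.23 (SE 0.32, unadjusted p = 0.0065, adjusted p = 1, limma). Leukocytes, a known source of Mmp9, had a marker sum lower in every KO library with Ptprc close to 0, as given above, and their part was not tested. Ctsk, a cysteine protease that cuts fibrils, also lay below (-0.32), Mmp15 lay above (0.25), and Mmp8 differed by 0.31 at under 1 CPM. Mmp2, the more abundant gelatinase, was level at 271 and 353 in WT against 278, 340.1 and 318 in KO (0.01).

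Laminins and other basement membrane partners had higher means in KO for 13 of 17, with a median of 0.14, and 0 of 17 passed the threshold (limma), with 1 at an unadjusted p under 0.05 (52.9% and 2.77% of all genes tested). That gene was Lama1, the laminin chain of early basement membranes, at 3.29 and 4.28 CPM in WT against 6.05, 7.55 and 7.52 in KO (0.75, SE 0.19, unadjusted p = 0.0062, adjusted p = 1), above in every KO library. Sparc, a collagen-binding glycoprotein, was at 2123 and 2577 in WT against 2826, 3710.2 and 2870 in KO, also above in every KO library. Lama5, the laminin chain of later kidney basement membranes, differed by 0.50 and Lama4, of vessels and stroma, by -0.44. Fibril-associated proteoglycans and glycoproteins gave 5 higher and 7 lower of 12. Postn, a matricellular protein that is also counted among the stroma markers, was at 482 and 181 CPM in WT against 272, 112 and 157 in KO (-0.81), highest in WT replicate 1 and lowest in KO replicate 2 where summed collagen was lowest and highest, and Fn1, fibronectin, at 1673 and 2332 in WT against 2779, 2694 and 2342 in KO, above in every KO library. The small leucine-rich proteoglycans Lum and Ogn differed by 0.23 and -0.32.

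**Figure D5:**
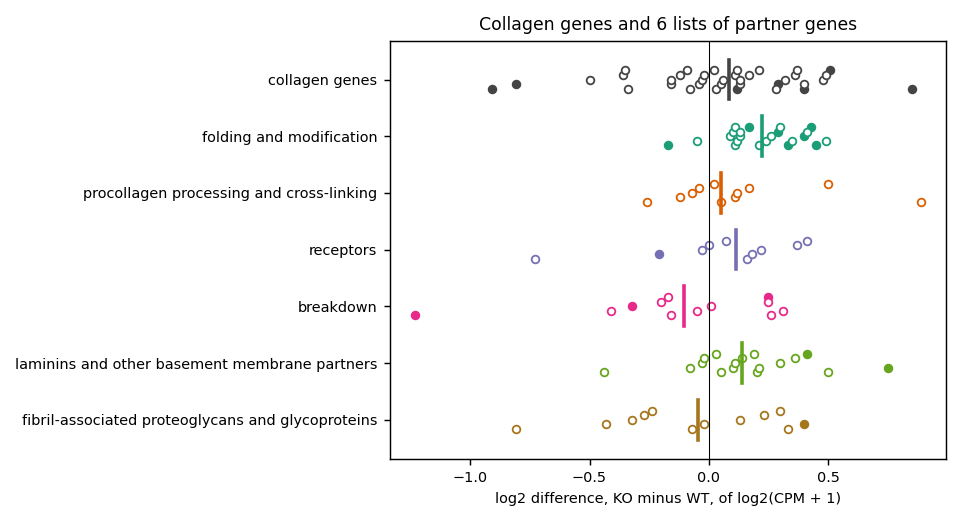
Log2 difference (KO minus WT, limma on log2(CPM + 1)) of each tested gene in the collagen family and in 6 lists of partner genes. Filled points mark genes whose genotypes do not overlap and a line marks each median. The folding and modification list has the highest median, 0.22.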

How the data were processed

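RNA was sequenced from 5 cultures as stranded total RNA, 50-base single-end reads, per the labels' protocols. Per the submitters' processing notes, the tools were edgeR 3.20.1, featureCounts and HISAT2 2.1.0 with mm10; the sources used here give no strand setting or annotation release. The deposited signal per gene and library behaves as CPM of an effective library size, since columns sum to 0.9222 M to 1.0496 M. The same deposited table gives the authors' log2 fold change and log2 CPM, a likelihood ratio score, and p-values with FDR. Reads per library were worked out from the steps between low values. With no counts deposited, limma 3.58.1 (R 4.3.3) was run on log2(CPM + 1) for genes at 0.5 CPM or more in at least 2 libraries, all 5 libraries in 1 fit, with genotype as the only term, trended prior and Benjamini-Hochberg adjustment over 14884 genes; the threshold was 0.05. Differences on this scale understate changes of low genes. Exon lengths came from GENCODE vM21 (98.9% of all IDs matched, and all 44 collagens). Collagens were named where their mean reached 5 CPM, where the genotypes did not overlap or where they form a neighbouring pair, with the rest given by range or values; each partner list names the up to 4 tested genes of lowest p. Serpinh1, P3h2, Pxdn, Mmp2, Ddx3y and the single marker genes were chosen after their values were seen. Members and lists were chosen with earlier results of these data known. The fit was tested on simulated data. Alternatives were pseudocounts, filters, scalings, a replicate block, an Xist term and leaving out each library. Python 3.11.15, pandas 2.3.3, scipy 1.17.1 and matplotlib 3.10.9 were used otherwise.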

Additional observations from a re-analysis of the deposited data

How the results depend on the processing

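With 2 WT libraries, WT replicate 1 or WT replicate 2 alone could turn most collagen differences. Of 28 named collagens, the 7 with genotypes apart kept their sign in every alternative that tested them (a filter of 2 CPM left out Col15a1, Col7a1 and Col20a1), and of the 21 others 1 did, Col12a1. Where genotypes lie apart, leaving out a library, another pseudocount or the block cannot turn the sign. The 7 were therefore bound to keep it in those settings, which is no measure of their stability. The 1 gene past the threshold, outside the collagens, was lost with a pseudocount of 5, with no filter, with median-of-ratios scaling and with the Xist term (0 each), and leaving out each library in turn gave 0 to 8. With the replicate number as a block, 390 genes passed (339 higher, 51 lower, 2.62%) and 2 collagens instead of 0, Col2a1 (1.15, adjusted p = 0.0181, limma) and Col6a3 (-1.05, adjusted p = 0.0369); Loxl1 (1.06, adjusted p = 0.0359) and Postn (-0.75, adjusted p = 0.0303) also passed. This fit uses 2 libraries of each genotype, since KO replicate 3 has no partner. The labels do not say what the numbers share. The deviations of same-numbered libraries correlated at 0.41 and 0.54 across genes, which 2 pairs cannot establish as pairing. The count of collagens above both WT libraries (5) was 3 with a filter of 2 CPM and 5 to 20 leaving out a library: 20 without WT replicate 2, 8 without KO replicate 1, and 7 without WT replicate 1 or KO replicate 3. The count below (2) was 1 with that filter and with plain scaling, and 2 to 12 leaving out a library: 12 without WT replicate 1, 4 without WT replicate 2 and 3 without KO replicate 2. The gene lost with plain scaling was Col6a3, whose genotypes then overlapped. With fewer libraries genotypes lie apart more easily, and the share over all genes was not worked out for the fits that leave out a library. Their counts therefore cannot be set against the 7.85% and 6.98% of the full fit. Leaving out a library moved the median of all collagens from -0.25 to 0.42, of fibrillar genes from -0.32 to 0.49, of basement membrane genes from -0.44 to 0.32 and of the others from -0.20 to 0.37; the lowest came without WT replicate 1 and the highest without WT replicate 2. Over all genes, 1168 lay above and 1039 below; plain scaling to equal column sums gave 1709 and 697. Causes were not tested beyond the fewer libraries or genes each setting uses.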
